A study of Mus musculus with 8 samples.

Results

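The interleukin-1 (IL-1) family and interleukin-6 were compared between the limbus and the cornea of the mouse through 10 genes, chosen by symbol from the 23420 named genes of the table. They encode the ligands IL-1α (Il1a), IL-1β (Il1b), IL-18 (Il18) and IL-33 (Il33), the receptor antagonist (Il1rn), the receptors Il1r1, Il1r2, Il1rap and Il1rl1, and the separate cytokine IL-6 (Il6). The limbal rim borders the sclera and harbors the stem cells of the corneal epithelium, and the corneal button is the clear center that the rim encloses. Rims and buttons came from young adult wild-type C57BL/6J mice that had received no treatment named in the sources, and were pooled by tissue before total RNA was extracted and sequenced. The samples are numbered 1 to 4 in each tissue, but the deposited mean of each gene is built from 2 libraries, 1 of pooled corneal buttons and 1 of pooled limbal rims. Read numbers of the libraries were worked back from these means. There was no spread between replicates, no test between tissues was possible, and intervals cover the counting of reads only.

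IL-1α and IL-1β bind the receptor Il1r1, which signals once the accessory chain Il1rap joins it, through the adaptor Myd88 to NF-κB. Il1rn occupies Il1r1 without signalling, and Il1r2 is a decoy receptor that binds the ligand but has no signalling domain. IL-1α and IL-33 are alarmins, stored in epithelial and other cells and released when cells are damaged, whereas IL-1β and IL-18 are made as precursors and cut by caspase-1. IL-33 acts through Il1rl1 (ST2) together with Il1rap. IL-6 is made after IL-1 or other inflammatory stimuli in many cells and signals through Il6st.

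The 250 bases before the RefSeq start of transcription (assembly GRCm38.p6) are shown for 4 genes: Il1r2 and Il1rn, with more reads in the limbus, Il1a, with more reads in the cornea, and Il6, which had none. All 10 genes matched a RefSeq promoter, with 15 windows in all. Capitals mark matches, on either strand, to the letters TGANTCA (bound by AP-1 factors), CACGTG (an E-box) and the NF-κB consensus. Each sequence is written 5′ to 3′ on the strand of the gene.
Il1r2, chr1:40085843-40086092, plus strand: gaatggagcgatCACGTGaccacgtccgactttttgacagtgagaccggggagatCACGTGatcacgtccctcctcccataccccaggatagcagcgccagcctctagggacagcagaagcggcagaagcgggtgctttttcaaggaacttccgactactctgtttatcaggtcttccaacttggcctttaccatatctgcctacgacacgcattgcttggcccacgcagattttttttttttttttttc
Il1rn, chr2:24336610-24336859, plus strand: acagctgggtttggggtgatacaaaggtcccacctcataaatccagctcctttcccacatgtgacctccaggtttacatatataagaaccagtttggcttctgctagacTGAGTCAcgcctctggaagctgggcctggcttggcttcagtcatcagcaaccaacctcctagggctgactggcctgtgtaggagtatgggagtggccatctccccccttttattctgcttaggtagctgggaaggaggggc
Il1a, chr2:129309973-129310222, minus strand: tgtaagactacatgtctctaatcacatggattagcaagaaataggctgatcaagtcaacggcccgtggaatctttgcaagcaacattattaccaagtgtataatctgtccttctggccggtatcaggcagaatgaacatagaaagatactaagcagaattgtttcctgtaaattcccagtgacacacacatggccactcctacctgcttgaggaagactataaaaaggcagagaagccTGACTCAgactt
Il6, chr5:30012864-30013113, plus strand: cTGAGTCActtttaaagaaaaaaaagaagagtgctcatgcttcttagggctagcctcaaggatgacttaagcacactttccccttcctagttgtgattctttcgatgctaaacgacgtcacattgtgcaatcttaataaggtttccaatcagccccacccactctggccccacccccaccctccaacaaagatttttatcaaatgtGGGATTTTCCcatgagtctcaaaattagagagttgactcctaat
The window of Il1r2 held 2 matches to CACGTG, beginning 238 and 195 bases before the start, and that window precedes an internal start at which the RefSeq transcript begins, inside the longer gene model of GENCODE. The windows of Il1rn and Il1a each held 1 match to TGANTCA, 141 and 12 bases before the start. The window of Il6 held a match to TGANTCA at 249 bases and to the NF-κB consensus at 44 bases before the start. Among the other genes, the second window of Il1r1 held a match to the NF-κB consensus at 232 bases. Of all 32851 RefSeq windows of this length, 7.25% held the NF-κB consensus, 6.75% held TGANTCA and 6.02% held CACGTG, so these are descriptions of the letters and not of binding.

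Of the 10 genes, 9 had more than 3 reads in a library, and 5 of these favored the limbus beyond counting error, namely Il1r2, Il1rl1, Il33, Il1rn and Il1r1. Il1a and Il18 were higher in the cornea beyond counting error, and for Il1b and Il1rap the interval included equal levels. Beyond counting error means here that the exact 95% interval of the ratio excluded equal levels. Of all 15572 genes with more than 3 reads in a library, 35.5% were higher in the limbus by that rule and 36.7% in the cornea. The same 5 genes were at least 2-fold higher in the limbus, against 20.8% of all genes, and the same 2 were at least 2-fold higher in the cornea, against 8.84% of all genes. In bulk tissue, fewer cells of a type and less RNA per cell cannot be told apart, and markers of macrophages, dendritic cells, blood vessels and limbal epithelium were also higher in the limbus. The median ratio of limbus over cornea of the 9 genes was 1.61 on the log2 scale, and that of all genes was 0.01.

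Il1a, the IL-1 form held ready in epithelial cells, was higher in the cornea. Il1a had 1913 cornea reads and 665 limbus reads, which became 1851 and 687 after division by the size factor of each library. The level in the cornea was 2.69-fold that in the limbus (95% interval 2.46 to 2.94), and 3.56% of the 13862 genes that exceeded 3 reads in each library had a lower ratio of limbus over cornea. Il1b, its inducible relative, had 21 cornea reads and 30 limbus reads. The log2 ratio of Il1b was 0.61 with an interval from −0.24 to 1.49, so no difference could be shown at this depth. Il1a and Il1b are neighbors on chromosome 2 (GRCm38, chr2:129299610-129309972 and chr2:129364570-129371139, both on the minus strand), and the interval of Il1a lay below 0 while that of Il1b included it.

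Il18, which activates lymphocytes and natural killer cells, was the most abundant of the 10 genes in the cornea. It had 3185 cornea reads and 1294 limbus reads, and the level in the cornea was 2.30-fold higher (interval 2.16 to 2.46). Il18 (chr9:50554827-50581840) overlaps the protein-coding genes Bco2 and Tex12 on the opposite strand, and it is not known if the counting used strand. Il1a, Il1b, Il1r2 and Il1rap overlap noncoding genes on the opposite strand, with the same limit, and Il1r1 and Il1r2 overlap unverified gene models on their own strand. Il33 (chr19:29925114-29960718), the nuclear alarmin of barrier tissues, differed in the other direction. It had 117 cornea reads and 709 limbus reads, and the level in the limbus was 6.48-fold higher (interval 5.32 to 7.94). Of the 13862 genes that exceeded 3 reads in each library, 95.4% had a lower ratio than Il33. The next best pair of read numbers with the same mean would put the log2 ratio of Il33 at 6.76 instead of 2.70, and it missed the deposited fold change and standard error by 0.031 in sum on the log2 scale, whereas the chosen pair met them. Il18 and Il1a kept close read numbers relative to each other, 1.66 reads of Il18 per read of Il1a in the cornea against 1.95 in the limbus, a 1.17-fold difference (interval 1.05 to 1.31). For Il33 the reads per read of Il1a were 0.061 in the cornea against 1.07 in the limbus, a 17.4-fold difference (interval 14.0 to 21.8). Per kilobase of exon, Il33 stood at 0.042 of the level of Il1a in the cornea and at 0.729 in the limbus, so Il1a stayed the higher in both.

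Il1rn, the antagonist that competes with IL-1α and IL-1β for their receptor, was higher in the limbus. It had 499 cornea reads and 2061 limbus reads, a 4.41-fold higher level in the limbus (interval 4.0 to 4.88). Within each library, where no scaling between libraries enters, the reads of Il1rn were 0.261 times those of Il1a in the cornea and 3.10 times those of Il1a in the limbus. The ratio of antagonist to agonist was thus 11.9-fold higher in the limbus (interval 10.4 to 13.6). Per kilobase of exon, Il1rn stood at 0.093 of the level of Il1a in the cornea and at 1.11 times its level in the limbus. Secreted and intracellular forms of Il1rn are not told apart by reads per gene.

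The decoy receptor Il1r2 was much higher in the limbus. It had 211 cornea reads and 2476 limbus reads, a 12.5-fold higher level in the limbus (interval 10.9 to 14.5), and 251 of the 13862 genes that exceeded 3 reads in each library had a higher ratio. With the next best pair of read numbers, which missed the deposited values by 0.055, its log2 ratio would be 4.76 instead of 3.65. The signalling receptor Il1r1 had 463 cornea reads and 1323 limbus reads, a 3.05-fold higher level in the limbus (interval 2.74 to 3.40). The reads of the decoy were 0.456 times those of the signalling receptor in the cornea and 1.87 times in the limbus, so the decoy gained on the signalling receptor by 4.11-fold (interval 3.43 to 4.92). Per kilobase of exon, the decoy exceeded the signalling receptor in both tissues, by 1.52-fold in the cornea and 6.24-fold in the limbus.

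Il1rap, the chain that the receptors for IL-1, IL-33 and IL-36 share, had 255 cornea reads and 221 limbus reads. Its log2 ratio was −0.11 with an interval from −0.38 to 0.15, and it was 0.10 when the libraries were scaled to total reads, so the sign was not settled. The next best pair, which missed the deposited values by 0.971, would put it at −1.52. Within the libraries, the reads of Il1r1 were 1.82 times those of Il1rap in the cornea against 5.99 times in the limbus, a 3.30-fold difference (interval 2.66 to 4.09). Il1rl1, the receptor of IL-33, had 1 cornea read and 25 limbus reads. The ratio of Il1rl1 was 26.7-fold with a counting interval from 4.37 to 1097, so the direction was clear and the size was not. Both the ligand Il33 and its receptor Il1rl1 were therefore higher in the limbus, the receptor at a low level. Il6 had no read in either library, which allows up to 3 reads in each.

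Levels in RPKM, that is reads per kilobase of exon length scaled to the size of the library, put the genes on a common scale, with the merged exons of all annotated transcripts as the length. In the cornea, Il18 was at 118 RPKM and Il1a at 37.1 RPKM, and Il1r2, at 4.24 RPKM, came next, 8.76-fold below Il1a (interval 7.60 to 10.2). Il1rn, Il1r1, Il33, Il1rap and Il1b followed at 3.45, 2.79, 1.55, 0.860 and 0.422, each step being larger than counting error. In the limbus, Il1r2 at 61.3 and Il18 at 59.3 were the highest and differed by 1.03-fold (interval 0.966 to 1.11), which counting error covers. They were followed there by Il1rn at 17.6, Il1a at 15.9, Il33 at 11.6 and Il1r1 at 9.82, again in steps larger than counting error. The intervals do not cover the choice of exon length, on which the order between genes also rests, and no other length was tried. Il1rap, at 0.918, and Il1b, at 0.743, could not be ordered in the limbus. Il1rl1 was at 0.171 in the limbus, and the 3 reads that a count of 0 allows would put Il6 at 0.047 in the cornea and 0.058 in the limbus. The decoy receptor thus stood behind Il18 and Il1a in the cornea and level with Il18 at the top in the limbus.

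**Figure D1:**
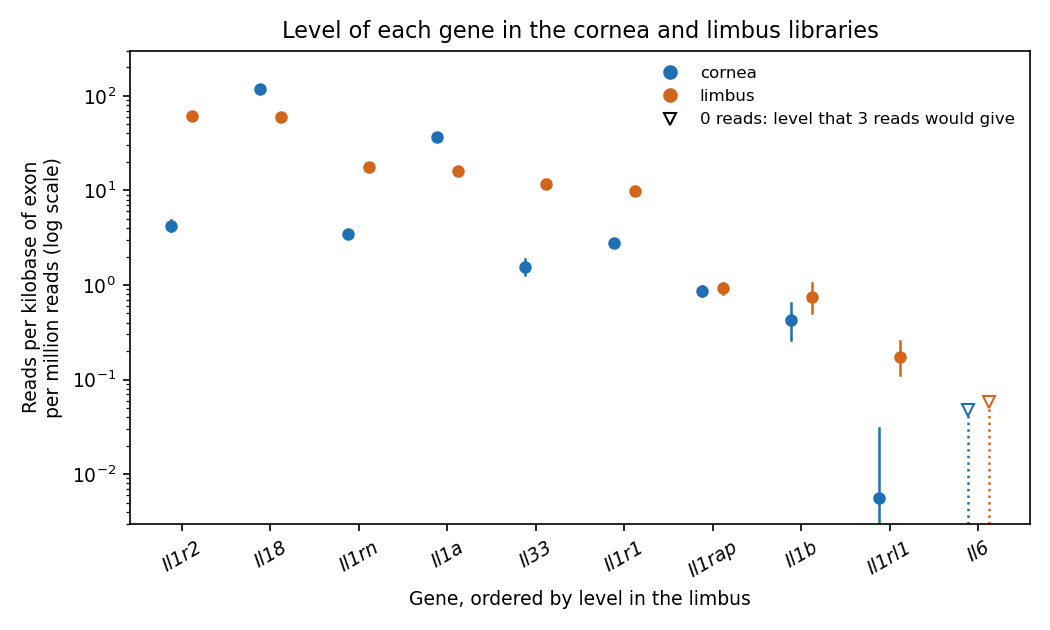
Level of each of the 10 genes in the cornea library (blue) and the limbus library (orange), in RPKM on a log axis, with 95% counting intervals as lines; triangles mark the level that 3 reads would give where a library had 0 reads. Il18 and Il1a lie higher in the cornea, at 118 and 37.1, and Il1r2 goes from 4.24 in the cornea to 61.3 in the limbus.

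The other genes of the family were set beside the 10. The table lists the IL-36 genes under older symbols. Il1f6 (IL-36α) had 239 cornea reads and 97 limbus reads, a log2 ratio of −1.21 (interval −1.56 to −0.86). Il1f8 (IL-36β) had 319 and 140 reads, a log2 ratio of −1.09, and Il1f5, the IL-36 receptor antagonist, had 546 and 278 reads, a log2 ratio of −0.88. These 3 genes were higher in the cornea beyond counting error, and Il1f9 (IL-36γ), with 1773 and 2000 reads and a log2 ratio of 0.27, was higher in the limbus. Il1f10 (IL-38), with 7 and 2 reads, had an interval that included equal levels. The IL-36 antagonist had 2.28 reads per read of Il1f6 in the cornea against 2.87 in the limbus, a 1.25-fold difference. Its interval, from 0.944 to 1.67, included no change and lay below that of Il1rn over Il1a. This holds for Il1f6 and not for Il1f9, which had 7.42 reads per read of Il1f6 in the cornea and 20.6 in the limbus. Relative to Il1f9, the antagonist was lower in the limbus.

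The IL-36 receptor Il1rl2 had 408 cornea reads and 729 limbus reads, a log2 ratio of 0.93 (interval 0.76 to 1.11). The IL-18 receptor chain Il18r1 had 212 and 555 reads, a log2 ratio of 1.48 (interval 1.25 to 1.72). The inhibitory receptor Sigirr had 144 and 243 reads, a log2 ratio of 0.85. The second IL-18 receptor chain Il18rap, with 1 and 5 reads, and the IL-18 binding protein Il18bp, with 32 and 43 reads, had intervals that included equal levels. The reads of Il18r1 per read of Il18 were 0.067 in the cornea against 0.429 in the limbus, a 6.44-fold difference (interval 5.42 to 7.68), since the ligand was lower and the receptor chain higher in the limbus.

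Counted by role over the 21 family genes in the table, 4 of 8 ligands were higher in the cornea, 2 in the limbus and 2 in neither. None of the 8 receptors with more than 3 reads was higher in the cornea, 6 were higher in the limbus, and Il1rap and Il18rap were in neither group. Over all genes, the limbus was favored by 35.5% and the cornea by 36.7% under this rule. The remaining receptor genes, Il1rapl1 and Il1rapl2, had at most 1 read. When the libraries were scaled to total reads, all log2 ratios shifted by 0.21 towards the limbus.

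**Figure D2:**
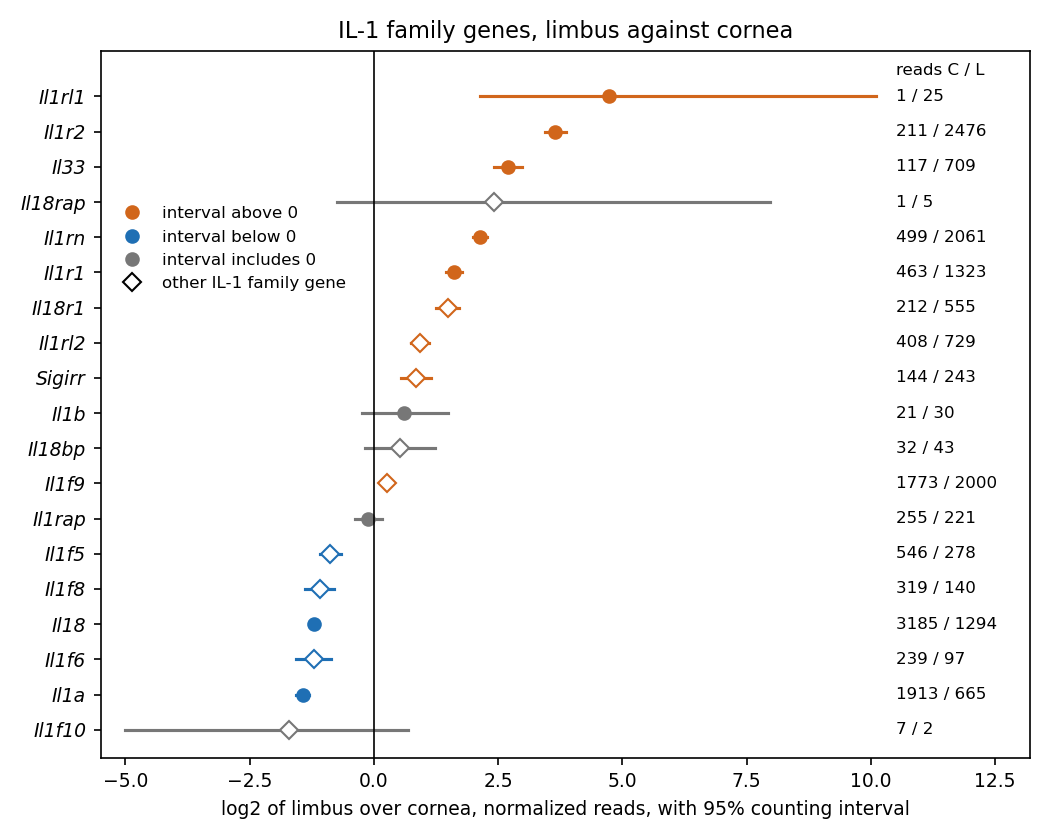
Log2 ratio of limbus over cornea for the IL-1 family genes with more than 3 reads in a library, from normalized reads, with 95% counting intervals; filled circles are the genes described first and open diamonds the other family genes. Colors tell if the interval lies above, below or across 0, and read numbers of cornea and limbus stand at the right. The receptors lie between −0.11 for Il1rap and 4.74 for Il1rl1, and Il1a lies at −1.43.

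Several of these genes are neighbors on a chromosome. Il1r2 (chr1:40074079-40125231), Il1r1 (chr1:40225080-40317257) and Il1rl1 (chr1:40429570-40465415) lie on the plus strand in a cluster of 6 receptor genes that spans 477.6 kb, together with Il1rl2, Il18r1 and Il18rap. Of these 6 genes, 5 were beyond counting error in favor of the limbus, beside 35.5% of all genes, and Il18rap was not. These 5 are among the receptors already counted by role. Il1rl1 ends 136 bases before Il18r1, which had more reads. Il1rn (chr2:24336853-24351494) is the last of 6 ligand and antagonist genes within 198.3 kb. In that cluster, Il1rn was higher in the limbus with a log2 ratio of 2.14 and the 3 genes Il1f8, Il1f6 and Il1f5 were higher in the cornea, so neighbors differed in direction. Il1rap (chr16:26581704-26730117) and Il6 (chr5:30013114-30019981) lie on chromosomes of their own.

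**Figure D3:**
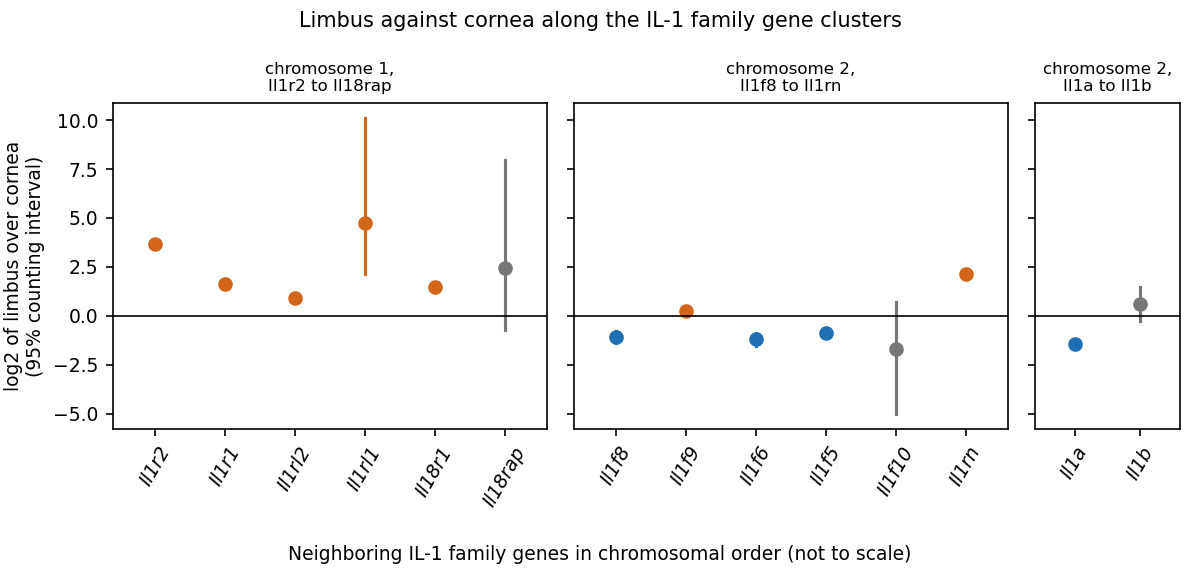
Log2 ratio of limbus over cornea, with 95% counting intervals, for neighboring family genes in chromosomal order; orange marks intervals above 0, blue intervals below 0 and gray intervals that include 0. The points of the receptor cluster on chromosome 1 lie above 0, and the interval of Il18rap includes 0. The cluster on chromosome 2 holds both directions, from −1.71 for Il1f10, whose interval includes 0, and −1.21 for Il1f6 to 2.14 for Il1rn.

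Genes that act before and after the family members were described by lists. Of 14 genes with more than 3 reads in a library that build inflammasomes and process the cytokines, 8 were limbal beyond counting error and 2 corneal, against 35.5% and 36.7% of all genes, with a median log2 ratio of 0.97. Casp1, which cuts IL-1β and IL-18, had 7 cornea reads and 111 limbus reads, a log2 ratio of 4.08 (interval 2.99 to 5.43). Casp4, which senses bacterial lipopolysaccharide inside cells, had 2 and 79 reads, and Nlrp10 had 1 and 19. The most corneal of them was Nlrp6, with 32 cornea reads and 7 limbus reads.

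Of 17 genes that carry the signal from the receptors, 5 favored the limbus and 9 the cornea, beside the same 35.5% and 36.7% of all genes, with a median log2 ratio of −0.32, or −0.12 when scaled to total reads. The adaptor Myd88 had 1060 cornea reads and 1214 limbus reads, a log2 ratio of 0.29. Tab3, Chuk and Irak2, a kinase adaptor, an IκB kinase and a receptor-associated kinase, were higher in the cornea with log2 ratios of −1.23, −0.98 and −0.84. The differences in this list were small beside those of the receptors, 1 of the 17 genes reaching 2-fold.

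Of 15 genes with more than 3 reads in a library that IL-1 is known to induce in many cells, 9 favored the limbus and 3 the cornea, beside 35.5% and 36.7% of all genes, with a median log2 ratio of 1.10. Icam1, an adhesion molecule for leukocytes, had 32 cornea reads and 756 limbus reads, a log2 ratio of 4.66 (interval 4.15 to 5.22). Lcn2, which binds bacterial siderophores, had 15 and 268 reads, a log2 ratio of 4.26. The chemokine gene Cxcl5 had 0 and 60 reads, and the lower end of the exact interval of its log2 ratio was 4.07. The chemokine genes Cxcl1, with 106 and 50 reads, and Cxcl2, with 107 and 54, and the NF-κB cofactor Nfkbiz, with 4007 and 3006, were the 3 genes higher in the cornea. They are named here after their values were seen.

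In the IL-6 family, Il6 itself had no reads, and of its relatives Lif, with 74 cornea reads and 152 limbus reads, Clcf1, with 43 and 93, and Ebi3, with 3 and 21, were higher in the limbus. Il11, with 17 and 7 reads, Cntf, with 5 and 6, and Ctf1, with 117 and 118, had intervals that included equal levels. The shared signalling chain Il6st had 1506 cornea reads and 2755 limbus reads, a log2 ratio of 0.97 (interval 0.88 to 1.06), whereas the IL-6 binding chain Il6ra had 272 and 175, a log2 ratio of −0.54 (interval −0.82 to −0.26). Of 13 receptor and signalling genes with more than 3 reads in a library, 4 favored the limbus and 7 the cornea, beside 35.5% and 36.7% of all genes. The limbal genes besides Il6st were Cntfr, with a log2 ratio of 3.66, the feedback inhibitor Socs3, with 3.39, and Il11ra1, with 2.17. The corneal genes besides Il6ra were Lifr, Osmr, Adam10, Jak2, Adam17 and Jak1, with log2 ratios from −0.86 to −0.565.

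**Figure D4:**
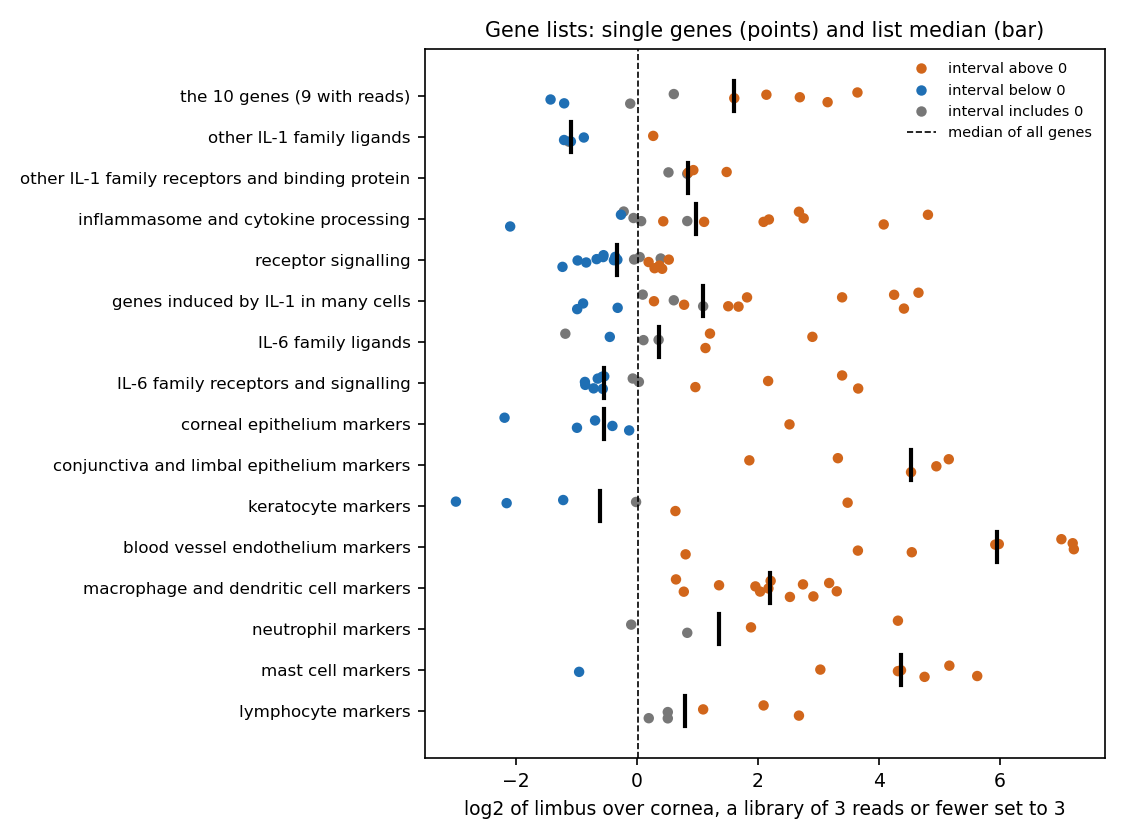
Log2 ratio of limbus over cornea for single genes (points) of each list, with the list median as a black bar and the median of all genes as a dashed line; libraries with 3 reads or fewer are set to 3. The median is 1.61 for the genes described first, −1.09 for the other family ligands, 0.85 for the other receptors and binding protein, and 2.19 for macrophage and dendritic cell markers.

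Marker genes of the cell types were compared in the same way. The labels were checked with Krt12, the keratin of corneal epithelium, which had 1137735 cornea reads and 233324 limbus reads, and Krt15, a keratin of limbal basal cells, which had 37738 and 353826. Beyond counting error, all 12 macrophage and dendritic cell markers favored the limbus, with log2 ratios from 0.65 to 3.31, and they summed to 7175 normalized cornea reads and 16990 normalized limbus reads. Itgam gave most of the cornea sum, and without it the sums were 1368 and 7900. All 8 markers of blood vessel endothelium were higher in the limbus, with a summed level of 245 and 3594, or 80.3 and 3307 without Kdr. Of 6 markers of limbal and conjunctival epithelium, 5 had more than 3 reads and all of these were higher in the limbus, with a summed level of 74368 and 597434.

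Neutrophil markers were few, with 2 of 4 genes above 3 reads higher in the limbus and a summed level of 836 and 882, or 13.5 and 112 without S100a9, and Mmp8, Ngp and Camp were at 0 in both libraries. Of 7 mast cell markers with more than 3 reads in a library, 6 were higher in the limbus, Mcpt4, Tpsb2 and Gata2 having no read in the cornea. Kit, which other cells also use, was higher in the cornea and set the summed level of 5002 and 3047, which was 5.80 and 472 without it. Of 6 lymphocyte markers with more than 3 reads in a library, 3 were higher in the limbus, with a summed level of 315 and 404. Of 6 keratocyte markers, 3 favored the cornea and 2 the limbus, with a summed level of 671243 and 323310, or 57033 and 59548 without Aldh3a1. Of 6 corneal epithelium markers, 5 were higher in the cornea, with a summed level of 1811045 and 805062, or 710449 and 563864 without Krt12, and Krt14 was higher in the limbus. Sums without the gene highest in the cornea were added after the values were seen. The part of these cell types in the ratios of the IL-1 family genes was not tested.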

How the data were processed

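The study sequenced stranded total RNA of pooled mouse corneal buttons and limbal rims. In CLC Genomics Workbench the authors removed adaptors, mapped to the mouse genome GRCm38 (mm10) and applied TMM normalization. They deposited 1 table: per gene, the authors' signal is a mean of normalized reads, followed by a log2 fold change with standard error and by p-values before and after adjustment. The fold changes and standard errors were used only to choose among read pairs, none is printed, and the p-values were not used. The counting tool and its use of strand are not given in the sources used here. The accession column of the table was not used, because only 2 of the 18556 accessions that match a symbol name the gene of their row.

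Of 40904 rows, 17484 have no gene name and stayed out, and 5978 of the 23420 named genes are listed at 0. The remaining 17442 means are averages of whole reads in 2 libraries divided by size factors of 1.0337 (cornea) and 0.9674 (limbus). A TMM scaling computed from those reads differed from these size factors by a shift of 0.0172 in all log2 ratios. A single pair of read numbers fits the mean of 6143 genes and more than 1 pair that of 11299, and the pair was taken whose fold change and standard error under a shrinkage model came closest to the deposited ones. Both agreed to within 0.001 in sum for 17147 genes, and the other 295 had only 1 possible pair. Il1b and Il1rl1 had 1 possible pair, and 7 of the 10 genes had several. Read numbers are thus derived values, not a deposited count table. The method was also run on simulated data. These were made with the same model, so that run cannot show that the model holds for the deposited values.

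The libraries held 26104317 (cornea) and 21182025 (limbus) reads on named genes. Ratios have exact Clopper-Pearson intervals at the 95% level for the limbal share. These and the floor of 3 reads cover counting error only. For the 2-fold rule and list medians, libraries at or under 3 reads were raised to 3. Levels are RPKM computed from the read numbers, with merged exon lengths from GENCODE M21 and the reads on named genes as library size. Python 3.11.15, numpy 2.4.6, pandas 2.3.3, scipy 1.17.1 and matplotlib 3.10.9 were used.

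Besides all 10 genes, the text names all genes with more than 3 reads in the lists of other IL-1 family ligands and receptors and IL-6 family ligands, and the 3 genes with the largest ratios, in either direction, of each pathway list among those beyond counting error, with Casp1, Myd88, Il6ra and Il6st. Any other gene was picked with its values in view. The values of 3 listed genes are not reported here. The members, lists and rules were chosen with earlier results of these data known. Alternatives were other scalings, a pseudocount of 1, filters on the mean of 10 and 50, a 99% interval and the next best read pair.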

Additional observations from a re-analysis of the deposited data

How the results depend on the processing

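There were 5 members at least 2-fold higher in the limbus under each alternative except the filter on a mean of at least 50, which leaves out Il1rl1 and gave 4. No member beyond counting error changed direction. Scaled to total reads, the number of members at least 2-fold higher in the cornea was 1, since the log2 ratio of Il18 went from −1.20 to −0.998, and Il1rap turned from −0.11 to 0.10. With the next best pair of read numbers that number was 3, Il1rap reaching −1.52, Il33 went from 2.70 to 6.76 and Il1r2 from 3.65 to 4.76, and the median log2 ratio of the members was 2.10 in place of 1.61. That pair missed the deposited values by 0.031 (Il33) to 0.971 (Il1rap) on the log2 scale in sum. Without replicates the spread between animals is unknown, and no replicate could be left out. No paired analysis was possible because values of single numbered samples are not analysed here and each tissue has 1 library.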
